A study of Mus musculus with 16 samples.

Results

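The Timm and Tomm genes encode the translocases that carry proteins into mitochondria. Members were the probe sets, the groups of oligonucleotides that measure 1 transcript on the array, whose gene symbol starts with Timm or Tomm, with 1 probe set per gene. There were 26 such genes of 19505 with a symbol, 16 Timm genes, named for the inner membrane, and 10 Tomm genes, named for the outer membrane. A name does not fix the place: the small Timm proteins work between the membranes, Tomm34 in the cytosol, and Timmdc1 in the assembly of respiratory complex I.

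The cells were BU.MPT, a single mouse line of proximal tubule origin, the part of the kidney tubule that reabsorbs most solutes. Each of 4 groups had 4 arrays: H/R+B12 (hypoxia and reoxygenation in the presence of cyanocobalamin), H/R alone, control+B12 and control. Hypoxia lasted 3 h in about 1% oxygen, in medium that lacked glucose and serum as well, and was followed by 1 h of reoxygenation under normal culture conditions with 21% oxygen, 10% serum and 4.5 g/L glucose. Cyanocobalamin, the supplement form of vitamin B12, was given at 0.3 µM. All groups were grown to at least 90% confluence at 39 °C without interferon-γ, conditions that switch off the temperature-sensitive T antigen which immortalizes this line. Loss of oxygen, glucose and serum therefore cannot be told apart, and the labels do not say whether arrays came from separate cultures, so p-values measure the spread between these arrays, which may be technical. For replicates 2 to 4 of the B12 groups a free-text label reads B13, B14 and B15, while the titles read B12, which was used.

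Nearly all mitochondrial proteins are made in the cytosol and enter through the TOM complex of the outer membrane, whose receptors Tomm20, Tomm22 and Tomm70a hand precursors to the Tomm40 channel. The TIM23 complex then takes precursors with a cleavable targeting sequence into the matrix or the inner membrane, and the small Tims escort hydrophobic proteins to the TIM22 complex, which inserts metabolite carriers. Proximal tubule cells are rich in mitochondria, which power their solute transport and are a main site of damage in ischemia.

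Values are log2 signals after robust multi-array averaging, so a difference of 1 is a doubling, and signals of different probe sets are not comparable as levels. The median signal over all probe sets was 5.21 to 5.37 on the 16 arrays. The median of the negative control features, used here as the background, was 5.72 to 6.23. It lay above the median of all probe sets on every array. It is therefore a strict cutoff, and many probe sets read below it. Of the 26 genes, 23 exceeded that background on all 16 arrays, Tomm40l did on 3, and Timm8a2 and Tomm20l did on 0. Timm9 and Tomm20l are neighbours whose ends overlap in the RefSeq annotation. Whether their probe sets lie in the overlap was not examined, so their signals may be uncertain. Of 15 proximal tubule markers measured, 2 (Aqp1 and Mme) exceeded the highest background median, against 5 of 7 general renal epithelial markers (Pax8, Pax2, Cdh16, Krt8 and Krt18). The other proximal tubule markers, transporters and receptors of the mature tubule among them, did not. Endothelial, leukocyte and fibroblast markers were above it in 0 of 3 each, distal nephron markers in 1 of 8 (Scnn1a), and 1 podocyte marker (Nphs1) was above it. The mean log2 signal of the 15 proximal tubule markers ranged over arrays from 4.60 to 4.76 in H/R+B12, 4.63 to 4.87 in H/R, 4.85 to 5.02 in control+B12 and 4.59 to 5.03 in control.

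After H/R the import genes split. Timm17a, Timm10, Timm8a1 and Tomm20 rose and Timm17b, Timm21, Timm8b, Timm13, Tomm22 and Tomm6 fell, both with and without B12. Changes are given on the log2 scale as estimate ± standard error from limma, with 4 arrays per group. Over the 26 genes they ranged from -1.58 to 0.77 in H/R against control and from -1.50 to 0.80 in H/R+B12 against control+B12. In H/R against control 5 of 26 passed the test as higher and 6 as lower, while limma called 17.6% of all 22206 probe sets (8.11% higher, 9.54% lower) at an adjusted p under 0.05. In H/R+B12 against control+B12 5 were higher and 10 lower, against 18.7% of all probe sets (9.04% higher, 9.61% lower). Dim probe sets are seldom called: among the 10261 probe sets brighter on average than the highest background median the shares were 35.0% (16.2% higher, 18.8% lower) and 36.1% (17.9% higher, 18.2% lower). All calls lay among the 23 bright members, 11 of them in H/R against control and 15 in H/R+B12 against control+B12. Nothing particular to the family is read from these counts, since the members were chosen with results known. With 700 pg of RNA per sample and scaled arrays, neither the number of cells nor their total RNA can be read from these signals. In bulk RNA, fewer cells that express a gene and less of its RNA per cell cannot be told apart.

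Of the 26, 4 were higher and 6 lower in both H/R comparisons, which share no array, and 0 were called in opposite directions. Same-direction calls made up 13.2% of all probe sets and 27.6% of the bright ones. The arrays of the groups did not overlap for 6 higher and 7 lower members in H/R against control (among all probe sets 9.88% and 11.0%, together 20.9%). They did not overlap for 7 higher and 10 lower in H/R+B12 against control+B12 (10.3% and 11.2%, together 21.5%). The count of 11 in H/R against control was 6 without control replicate 2, 7 without control replicate 3 and 7 without H/R replicate 2. Centred on the negative controls, which moved the median change of all probe sets by -0.16, it was 0 higher and 6 lower, and with H/R+B12 against control+B12 2 higher and 8 lower. Centred on array medians the split was 6 higher and 4 lower without B12, and 6 higher and 8 lower with it.

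**Figure D1:**
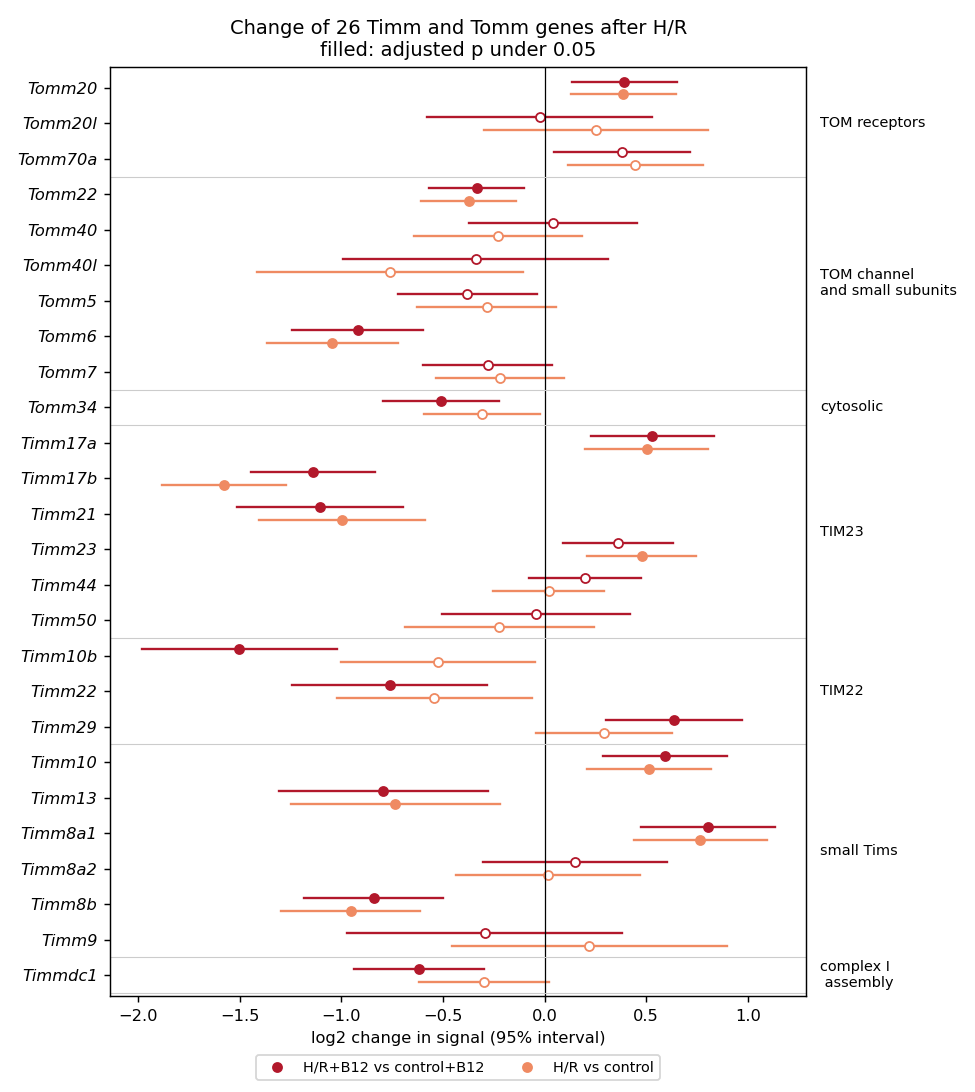
Log2 change in signal (x axis, with 95% intervals) of the 26 Timm and Tomm genes, grouped by complex, in H/R+B12 against control+B12 (dark red) and in H/R against control (orange). Filled points passed an adjusted p under 0.05, and the extremes are Timm17b at -1.58 in H/R against control and Timm8a1 at 0.80 in H/R+B12 against control+B12.

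Inner and outer membrane genes both went in either direction. Among the 16 Timm genes 4 were higher and 4 lower in H/R against control, with a median log2 change of -0.10, and 4 were higher and 7 lower in H/R+B12 against control+B12, with a median of -0.17. Among the 10 Tomm genes 1 was higher and 2 lower (median -0.26), and 1 was higher and 3 lower with B12 (median -0.31). Over all probe sets the medians were -0.02 without B12 and -0.04 with it. These medians depend on which genes are counted: over the membrane-bound translocase parts only, 9 Timm and 9 Tomm genes, they were -0.22 and -0.23 in H/R against control and -0.04 and -0.28 in H/R+B12 against control+B12. When the 25% dimmest probe sets were dropped, the Timm medians were -0.22 without B12 and -0.29 with it. Whether the inner and outer genes differ was not tested, since a gene is no replicate of a condition. The median signal of the 16 Timm genes lay at 9.30 to 9.62 on the H/R+B12 arrays and 9.29 to 9.65 on the H/R arrays, against 9.94 to 10.17 on the control+B12 arrays and 9.91 to 10.26 on the control arrays. For the 10 Tomm genes it lay at 11.30 to 11.48 and 11.27 to 11.55 on the H/R+B12 and H/R arrays, against 11.67 to 12.07 and 11.68 to 11.91 on the control+B12 and control arrays. Every H/R or H/R+B12 array was below every control array in both medians. Such a median follows the middle-ranked genes of a list, so it does not show that the family fell as a whole. By group means these were among Timm21, Timm17b and Timm8b, each called lower in both H/R comparisons. For the Tomm list they were Tomm34 and Tomm5, neither called in H/R against control. The mean over all genes of a list moved less. For the Timm genes it lay at 9.33 to 9.53 on the H/R+B12 arrays and 9.38 to 9.53 on the H/R arrays, against 9.60 to 9.79 on the control+B12 arrays and 9.55 to 9.82 on the control arrays. For the Tomm genes the mean was 10.35 to 10.52 with H/R+B12 and 10.32 to 10.60 with H/R, against 10.56 to 10.70 with control+B12 and 10.56 to 10.69 with control, and the H/R and control arrays overlapped.

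The pair that moved furthest apart was Timm17a and Timm17b, alternative forms of the subunit that builds the TIM23 protein-conducting channel together with Timm23. Timm17b read 9.11, 9.05, 9.23 and 9.53 on the H/R arrays, against 10.75, 10.80, 10.62 and 11.06 on the control arrays. With B12, Timm17b read 9.43, 9.58, 9.26 and 9.44 on the H/R+B12 arrays, against 10.40, 10.57, 10.73 and 10.57 on the control+B12 arrays. All arrays after H/R were below all control arrays in both settings. Timm17b fell, with log2 changes of -1.58 ± 0.14 for H/R against control (adjusted p = 1.43e-06) and -1.14 ± 0.14 for H/R+B12 against control+B12 (adjusted p = 3.21e-05). Timm17a signals were 12.97, 13.12, 13.13 and 12.67 after H/R, against 12.59, 12.28, 12.67 and 12.33 in control cells. In B12-treated cells Timm17a signals were 12.93, 12.95, 13.05 and 12.71 with H/R+B12, against 12.41, 12.26, 12.35 and 12.48 with control+B12. Timm17a was high on the H/R+B12 arrays without overlap, while the lowest H/R and the highest control array were both 12.67 at 2 decimals. Timm17a rose, with log2 changes of 0.50 ± 0.14 for H/R against control (adjusted p = 0.0206) and 0.53 ± 0.14 for H/R+B12 against control+B12 (adjusted p = 0.0144). The call in H/R against control was lost without control replicate 2 (adjusted p = 0.0676) or 4 (0.0597), without H/R replicate 2 (0.0647) or 3 (0.065) and centred on the negative controls (0.192), and that in H/R+B12 against control+B12 with this centring (0.077).

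Within each array the Timm17a signal minus the Timm17b signal, a difference that no shift of a whole array can change, was 3.50, 3.37, 3.79 and 3.27 with H/R+B12 and 3.86, 4.07, 3.90 and 3.14 with H/R. It was 2.02, 1.69, 1.62 and 1.92 with control+B12 and 1.84, 1.48, 2.04 and 1.27 with control. The groups did not overlap, and the difference was larger after H/R by 2.08 without B12 and by 1.67 with it, a mean of 1.88. No test is given for it, because both genes had already been seen to change in opposite directions, which fixes that the groups separate.

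Timm8a1 and Timm8b, small Tims of the space between the membranes, were the second pair to diverge. Timm8a1 is the mouse counterpart of human TIMM8A, whose loss causes a deafness and dystonia syndrome. For Timm8a1 the H/R arrays gave 11.47, 11.96, 11.71 and 11.82, against 10.94, 11.07, 11.15 and 10.73 on the control arrays. With B12, Timm8a1 gave 11.46, 11.77, 12.04 and 11.78 on the H/R+B12 arrays, against 11.14, 10.96, 10.80 and 10.94 on the control+B12 arrays. Its arrays after H/R were all above the control arrays. Timm8a1 rose, by 0.77 ± 0.16 for H/R against control (adjusted p = 0.00206) and 0.80 ± 0.16 for H/R+B12 against control+B12 (adjusted p = 0.0014), and the first of these was not called when arrays were centred on the negative controls (adjusted p = 0.0537). Timm8b read 8.46, 8.80, 9.04 and 8.62 on the H/R arrays, against 9.76, 9.87, 9.76 and 9.34 on the control arrays. With B12, Timm8b read 8.77, 8.99, 8.54 and 8.72 on the H/R+B12 arrays, against 9.43, 9.63, 9.54 and 9.78 on the control+B12 arrays. Here all arrays after H/R were below the control arrays. Timm8b fell, with log2 changes of -0.95 ± 0.16 for H/R against control (adjusted p = 0.00048) and -0.84 ± 0.16 for H/R+B12 against control+B12 (adjusted p = 0.00131). The Timm8a1 minus Timm8b difference was larger by 1.72 after H/R without B12 and by 1.64 with B12, a mean of 1.68, given as a description for the same reason. A further relative, Timm8a2, was below the background on every array. Timm8a2 read 2.97, 2.81, 3.02 and 2.47 on the H/R arrays, against 2.74, 3.10, 2.89 and 2.49 on the control arrays. With B12, it read 2.84, 2.38, 2.69 and 3.47 on the H/R+B12 arrays, against 2.38, 2.73, 2.80 and 2.87 on the control+B12 arrays. Its groups overlapped, and it did not pass.

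**Figure D2:**
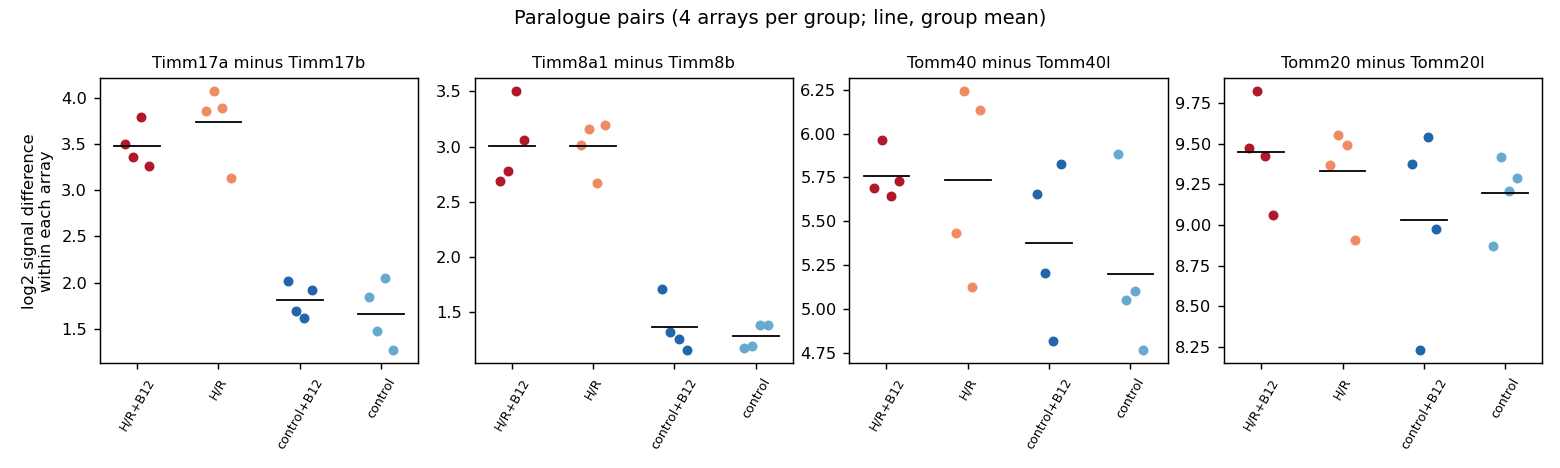
Difference of log2 signal within an array (y axis) for 4 pairs of related genes, with 1 point per array and a line at the mean of each group of 4. For Timm17a minus Timm17b the H/R+B12 and H/R arrays sit at 3.14 to 4.07, above the control+B12 and control arrays at 1.27 to 2.04, while the mean difference moved by 0.46 for the Tomm40 pair and 0.28 for the Tomm20 pair, each with 1 gene at or below the background.

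The sequences upstream of these 4 genes are shown because the pairs moved apart in RNA, and the array gives no other view of their regulation. They are the 250 bases before the annotated start, from RefSeq on GRCm38.p6: chr1:135313738-135313987 on the minus strand for Timm17a, chrX:7899086-7899335 on the plus strand for Timm17b, chrX:134541671-134541920 on the minus strand for Timm8a1 and chr9:50603651-50603900 on the plus strand for Timm8b. Capitals mark the core of the site bound by the hypoxia-inducible factors, ACGTG or GCGTG on either strand.
Timm17a: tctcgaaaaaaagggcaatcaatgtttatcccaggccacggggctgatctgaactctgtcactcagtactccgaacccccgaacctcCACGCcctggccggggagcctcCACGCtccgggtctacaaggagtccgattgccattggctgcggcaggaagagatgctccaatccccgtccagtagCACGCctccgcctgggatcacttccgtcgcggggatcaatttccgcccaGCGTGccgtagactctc
Timm17b: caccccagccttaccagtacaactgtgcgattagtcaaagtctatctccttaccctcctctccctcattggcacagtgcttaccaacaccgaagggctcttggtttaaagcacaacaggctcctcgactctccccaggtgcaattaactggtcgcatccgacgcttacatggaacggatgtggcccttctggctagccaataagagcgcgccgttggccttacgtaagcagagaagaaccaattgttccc
Timm8a1: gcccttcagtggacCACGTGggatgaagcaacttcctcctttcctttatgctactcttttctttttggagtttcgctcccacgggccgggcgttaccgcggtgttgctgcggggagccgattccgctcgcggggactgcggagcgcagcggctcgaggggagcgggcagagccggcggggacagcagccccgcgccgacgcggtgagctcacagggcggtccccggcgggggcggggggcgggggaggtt
Timm8b: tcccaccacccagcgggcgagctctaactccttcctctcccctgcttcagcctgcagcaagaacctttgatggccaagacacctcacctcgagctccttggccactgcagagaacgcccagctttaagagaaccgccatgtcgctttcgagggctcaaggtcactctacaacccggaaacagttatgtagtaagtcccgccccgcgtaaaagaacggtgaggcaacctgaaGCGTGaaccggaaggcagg
The Timm17a window held 4 cores and that of Timm17b 0. The Timm8a1 window held a single E-box, CACGTG, which counts as 2 core matches because it holds the core on each strand, and the Timm8b window held 1 core. GC content was 60.4% for Timm17a and 52.8% for Timm17b, and 69.6% for Timm8a1 and 57.6% for Timm8b.

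Of the 26 genes 23 matched a RefSeq promoter. The core is common: 38.6% of 32851 promoter windows of this length hold it, as did those of 14 of the 23 genes, of 4 of the 4 genes higher in both H/R comparisons and of 3 of the 5 with a promoter that were lower in both. The E-box was found in 4 of 23 (6.02% of windows), among them Timm8a1 and Tomm20 of the 4 higher genes and 0 of the 5 lower ones. The ETS motif CCGGAAG was in 9 of 23 (6.91% of windows), 1 of the 4 higher and 2 of the 5 lower genes. Heat shock element repeats were in 1 of 23 as GAANNTTC (6.69%) and 6 of 23 as TTCNNGAA (7.17%). The ATF4 element TGATGNAA (3.45% of windows), the palindromic NRF1 motif (0.782%) and the YY1 motif AAGATGGCG (0.606%) were in 0 of 23. All were searched on both strands. A match is a run of letters in this window and not evidence of binding, and nothing follows from the lack of one.

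Among the other TIM23 genes, Timm21, which passes precursors on from the TOM complex and helps respiratory chain assembly, fell. Timm21 signals were 9.47, 9.95, 9.44 and 9.78 after H/R, against 10.91, 10.55, 10.83 and 10.32 in control cells. In B12-treated cells Timm21 signals were 9.81, 9.47, 9.61 and 9.15 with H/R+B12, against 10.56, 10.24, 10.91 and 10.75 with control+B12. No array after H/R reached the lowest array of its control group. Timm21 changed by -0.997 ± 0.19 for H/R against control (adjusted p = 0.0014) and -1.10 ± 0.19 for H/R+B12 against control+B12 (adjusted p = 0.00061). Timm23, the channel subunit itself, went the other way. For Timm23 the H/R arrays gave 14.57, 14.69, 14.58 and 14.36, against 14.12, 13.83, 14.22 and 14.11 on the control arrays. With B12, Timm23 gave 14.27, 14.53, 14.54 and 14.41 on the H/R+B12 arrays, against 14.08, 14.04, 14.17 and 14.02 on the control+B12 arrays. Arrays after H/R were above the controls in both settings. Timm23 rose in H/R against control, by 0.48 ± 0.13 (adjusted p = 0.014), a call lost without control replicate 2 (0.0526) and centred on the negative controls (0.271). In H/R+B12 against control+B12 its log2 change was 0.36 ± 0.13 (adjusted p = 0.0596). It passed there without control replicate 2 (0.0496), with an intensity trend (0.00631), with the dimmest 25% left out (0.0334) and with arrays centred on their medians (0.0258). Neither Timm44, which tethers the import motor to the channel, nor Timm50, a receptor for precursors that leave the TOM complex, passed in either comparison. Their log2 changes were 0.02 and -0.22 in H/R against control and 0.20 and -0.04 in H/R+B12 against control+B12.

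The 3 TIM22 genes, for the complex that inserts carriers, passed the test with B12, 1 as higher and 2 as lower, and did not pass without it, and the difference between the comparisons was not called for any of them. Timm10b, a small Tim bound to TIM22, was lowest in the H/R+B12 group. Timm10b read 8.24, 7.82, 8.45 and 8.33 on the H/R arrays, against 8.84, 8.64, 9.08 and 8.38 on the control arrays. With B12, Timm10b read 7.44, 7.89, 7.80 and 6.90 on the H/R+B12 arrays, against 9.01, 8.92, 8.72 and 9.40 on the control+B12 arrays. The H/R+B12 arrays lay well below the control+B12 arrays, whereas the highest H/R array overlapped the control group. Timm10b changed by -0.52 ± 0.23 for H/R against control (adjusted p = 0.137) and -1.50 ± 0.23 for H/R+B12 against control+B12 (adjusted p = 0.000169). Timm22, the channel, had changes of -0.54 ± 0.23 for H/R against control (adjusted p = 0.121) and -0.76 ± 0.23 for H/R+B12 against control+B12 (adjusted p = 0.0251). Timm22 signals were 7.28, 7.46, 7.74 and 8.02 after H/R, against 7.97, 8.02, 8.24 and 8.43 in control cells. In B12-treated cells Timm22 signals were 7.74, 6.81, 7.78 and 7.27 with H/R+B12, against 8.53, 7.87, 8.02 and 8.22 with control+B12. The highest H/R array overlapped the control arrays, and H/R+B12 did not overlap control+B12. The Timm22 call was lost without control+B12 replicate 1 (adjusted p = 0.0832) or 4 (0.0562) and without H/R+B12 replicate 2 (0.0902) or 4 (0.0637).

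Timm29, a TIM22 subunit found in animals, was higher with H/R+B12. For Timm29 the H/R arrays gave 7.09, 7.32, 7.47 and 7.34, against 7.19, 6.64, 6.97 and 7.26 on the control arrays. With B12, Timm29 gave 7.40, 7.77, 7.73 and 7.43 on the H/R+B12 arrays, against 6.77, 6.91, 6.94 and 7.15 on the control+B12 arrays. H/R+B12 was above control+B12 on every array, and H/R overlapped control. Its log2 changes were 0.29 ± 0.16 for H/R against control (adjusted p = 0.259) and 0.64 ± 0.16 for H/R+B12 against control+B12 (adjusted p = 0.00877), and the second was not called when arrays were centred on the negative controls (0.079).

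The remaining small Tims escort carriers and other hydrophobic precursors as ring-shaped assemblies, Timm9 with Timm10 and Timm8a1 with Timm13. Timm10 rose and its partner Timm9 did not pass. Timm10 read 10.03, 10.02, 9.77 and 9.86 on the H/R arrays, against 9.72, 9.20, 9.23 and 9.50 on the control arrays. With B12, Timm10 read 10.07, 10.12, 10.07 and 9.81 on the H/R+B12 arrays, against 9.54, 9.23, 9.42 and 9.52 on the control+B12 arrays. All arrays after H/R were above all arrays of their controls. Timm10 changed by 0.51 ± 0.14 for H/R against control (adjusted p = 0.0196) and 0.59 ± 0.14 for H/R+B12 against control+B12 (adjusted p = 0.00743). The first call was lost without control replicate 2 (adjusted p = 0.0671) or 3 (0.0646), without H/R replicate 1 (0.0571) or 2 (0.0559) and centred on the negative controls (0.149). Timm9 had log2 changes of 0.22 ± 0.32 (adjusted p = 0.74) in H/R against control and -0.29 in H/R+B12 against control+B12 (adjusted p = 0.612).

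Timm13, the partner of Timm8a1, fell while Timm8a1 rose. Timm13 signals were 7.99, 8.36, 8.12 and 8.24 after H/R, against 8.84, 8.92, 9.61 and 8.28 in control cells. In B12-treated cells Timm13 signals were 8.17, 7.85, 8.30 and 8.02 with H/R+B12, against 8.70, 8.87, 8.50 and 9.45 with control+B12. Control replicate 4, at 8.28, overlapped the H/R arrays, and with B12 the groups did not overlap. Timm13 changed by -0.74 ± 0.24 for H/R against control (adjusted p = 0.046) and -0.79 ± 0.24 for H/R+B12 against control+B12 (adjusted p = 0.0303). The first call was weak: it was lost without any one of control replicates 1 to 3, H/R replicates 1 to 4, control+B12 replicates 1 and 2 or H/R+B12 replicates 1 to 4, with adjusted p from 0.0522 to 0.158, the highest without control replicate 3. The second was lost without control+B12 replicate 2 (0.0576) or 4 (0.104) and H/R+B12 replicate 1 (0.0501), 2 (0.0852) or 4 (0.0662). Both were also lost with the replicate block (0.076 and 0.0532) and centred on array medians (0.0834 and 0.0602). The first was lost as well with quantile normalization (0.0823) and with only the 2 groups fitted (0.0779).

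**Figure D3:**
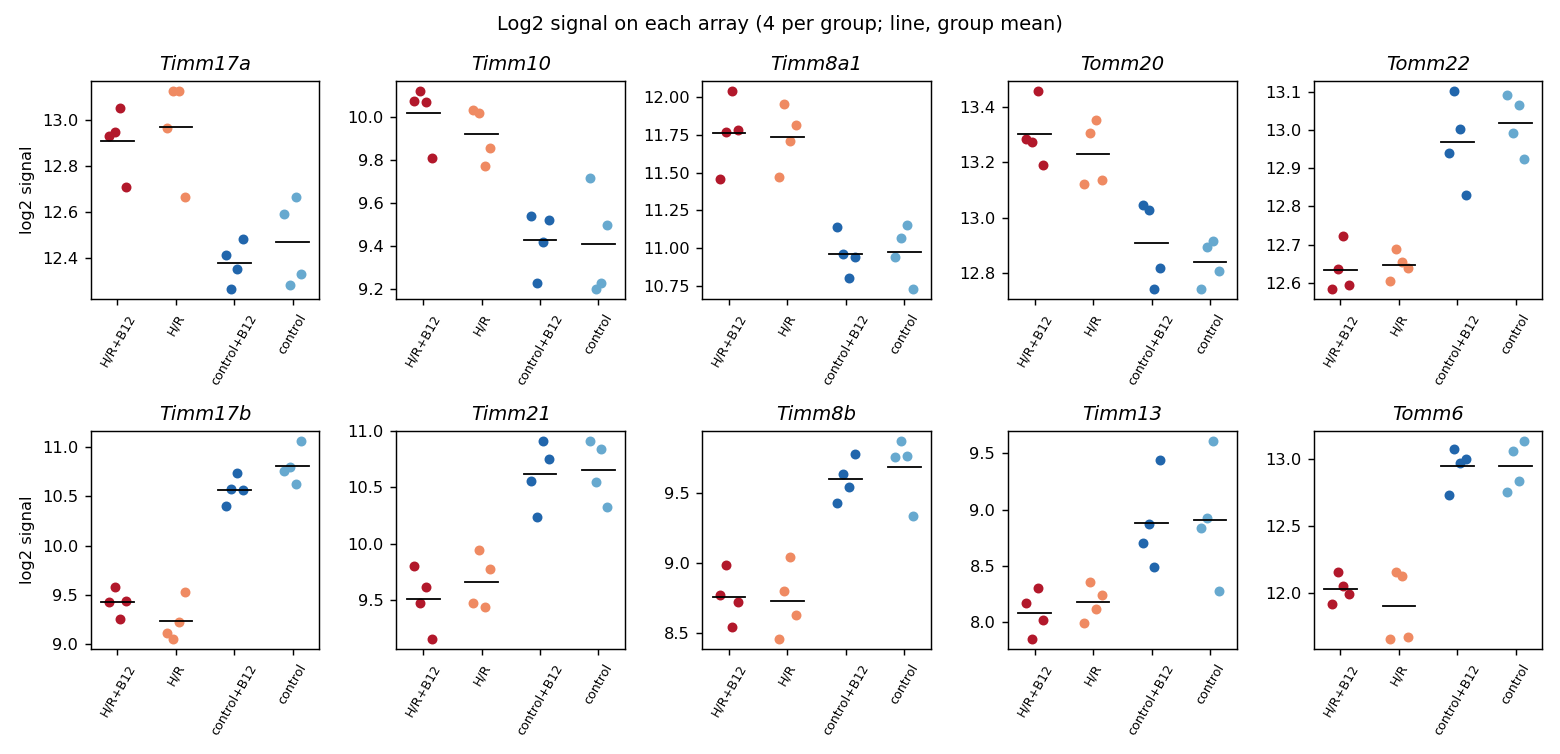
Log2 signal (y axis) of the 10 genes called in both H/R comparisons, with 1 point per array, groups in the order H/R+B12, H/R, control+B12 and control, and a line at the mean of 4 arrays. The upper row holds Timm17a, Timm10, Timm8a1, Tomm20 and Tomm22 and the lower row Timm17b, Timm21, Timm8b, Timm13 and Tomm6. The Timm17b arrays sit at 9.05 to 9.58 after H/R and at 10.40 to 11.06 in the control groups.

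At the outer membrane, the receptor Tomm20, which binds targeting sequences, rose slightly. For Tomm20 the H/R arrays gave 13.12, 13.31, 13.35 and 13.13, against 12.75, 12.89, 12.92 and 12.81 on the control arrays. With B12, Tomm20 gave 13.28, 13.27, 13.46 and 13.19 on the H/R+B12 arrays, against 13.04, 13.03, 12.74 and 12.82 on the control+B12 arrays. Its arrays after H/R were above those of the controls in both settings. Tomm20 changed by 0.39 ± 0.12 for H/R against control (adjusted p = 0.0377) and 0.39 ± 0.12 for H/R+B12 against control+B12 (adjusted p = 0.0338). The first call was lost without any one control array (adjusted p from 0.0528 to 0.0876), without H/R replicate 2 (0.0934) or 3 (0.105) and centred on the negative controls (0.454). The second was lost without control+B12 replicate 3 (0.0999) or 4 (0.0832), H/R+B12 replicate 1 (0.0623), 2 (0.0609) or 3 (0.103), and with the same centring (0.272). Both were also lost with the replicate block (adjusted p = 0.0561 and 0.0508) and with quantile normalization (0.0866 and 0.0874). Fitting only the 2 groups lost them too (0.0892 and 0.0983).

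Tomm20l, a relative of Tomm20 with signals below the background, did not pass. Tomm20l read 3.75, 3.75, 3.86 and 4.23 on the H/R arrays, against 3.88, 3.47, 3.71 and 3.52 on the control arrays. With B12, Tomm20l read 3.81, 3.45, 4.03 and 4.13 on the H/R+B12 arrays, against 3.67, 4.80, 3.20 and 3.85 on the control+B12 arrays. The groups overlapped, and the Tomm20 minus Tomm20l difference moved by a mean of 0.28. Tomm70a, the receptor for carriers delivered by cytosolic chaperones, was above the controls on every array after H/R without passing the threshold. Its log2 changes were 0.45 ± 0.16 for H/R against control (adjusted p = 0.0614) and 0.38 ± 0.16 for H/R+B12 against control+B12 (adjusted p = 0.112). The first passed without control replicate 4 (0.0438), with an intensity trend (0.0106), array weights (0.0447), the dimmest 25% left out (0.0397) or arrays centred on their medians (0.0313), and the second passed with the trend (0.0313).

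The subunits around the channel were lower or did not pass. Tomm6, a small subunit that stabilizes the complex, fell most of these. Tomm6 signals were 11.65, 12.16, 12.13 and 11.67 after H/R, against 12.75, 13.06, 12.84 and 13.14 in control cells. In B12-treated cells Tomm6 signals were 11.92, 12.15, 12.05 and 11.99 with H/R+B12, against 12.73, 13.08, 12.97 and 13.00 with control+B12. Every array after H/R was below every control array. Tomm6 changed by -1.04 ± 0.15 for H/R against control (adjusted p = 0.00013) and -0.92 ± 0.15 for H/R+B12 against control+B12 (adjusted p = 0.000401). Tomm22, the central receptor that organizes the complex, fell by less. For Tomm22 the H/R arrays gave 12.60, 12.69, 12.65 and 12.64, against 13.09, 12.99, 13.07 and 12.92 on the control arrays. With B12, Tomm22 gave 12.58, 12.64, 12.72 and 12.60 on the H/R+B12 arrays, against 12.94, 13.10, 13.00 and 12.83 on the control+B12 arrays. These groups did not overlap either. Tomm22 changed by -0.37 ± 0.11 for H/R against control (adjusted p = 0.0259) and -0.33 ± 0.11 for H/R+B12 against control+B12 (adjusted p = 0.0436).

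Both Tomm22 calls were close to the threshold. The first was lost without control replicate 1 (adjusted p = 0.0604) or 3 (0.0636), without H/R replicate 1 (0.0636), 3 (0.0526) or 4 (0.0541) and centred on array medians (0.078). The second was lost without control replicate 2 or 3, control+B12 replicate 1, 2 or 3, any H/R array or any H/R+B12 array, with adjusted p from 0.0525 to 0.118. It was also lost centred on array medians (0.145) or on the negative controls (0.133), with array weights (0.0544) and with the replicate block (0.0653). Tomm5 and Tomm7, the other small subunits, had log2 changes of -0.29 and -0.22 in H/R against control and -0.38 and -0.28 in H/R+B12 against control+B12, and neither passed. The H/R arrays of Tomm5 were all below the control arrays.

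Tomm40, the channel itself, did not pass. Tomm40 read 10.48, 10.78, 11.06 and 10.42 on the H/R arrays, against 11.02, 11.06, 11.23 and 10.35 on the control arrays. With B12, Tomm40 read 10.58, 11.11, 10.87 and 10.95 on the H/R+B12 arrays, against 11.02, 10.77, 10.76 and 10.80 on the control+B12 arrays. The groups overlapped, with log2 changes of -0.23 in H/R against control and 0.04 in H/R+B12 against control+B12. Its relative Tomm40l, near the background, also overlapped. Tomm40l signals were 5.05, 4.54, 5.94 and 4.29 after H/R, against 5.13, 6.01, 6.13 and 5.58 in control cells. In B12-treated cells Tomm40l signals were 4.89, 5.14, 5.23 and 5.22 with H/R+B12, against 5.36, 5.57, 5.94 and 4.98 with control+B12. The H/R arrays spread from 4.29 to 5.94, and H/R replicate 3 was the high one. The log2 change of Tomm40l was -0.76 ± 0.31 in H/R against control (adjusted p = 0.11). It passed with the replicate block (adjusted p = 0.0493) and, at -1.09, without H/R replicate 3 (adjusted p = 0.0098). The Tomm40 minus Tomm40l difference moved by a mean of 0.46.

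Tomm34 and Timmdc1 stand outside the translocases. Tomm34 is a cytosolic protein that binds Hsp70 and Hsp90 and keeps precursors unfolded. For Tomm34 the H/R arrays gave 11.85, 11.38, 11.67 and 11.78, against 11.89, 11.88, 12.17 and 11.97 on the control arrays. With B12, Tomm34 gave 11.43, 11.45, 11.63 and 11.53 on the H/R+B12 arrays, against 11.82, 12.14, 12.10 and 12.03 on the control+B12 arrays. Arrays after H/R were below the controls in both settings. Tomm34 changed by -0.31 ± 0.14 for H/R against control (adjusted p = 0.142) and -0.51 ± 0.14 for H/R+B12 against control+B12 (adjusted p = 0.0131), and the second was not called when arrays were centred on the negative controls (0.0643). Timmdc1 read 10.36, 10.81, 10.48 and 10.28 on the H/R arrays, against 10.86, 10.69, 10.78 and 10.80 on the control arrays. With B12, Timmdc1 read 10.24, 10.50, 10.65 and 10.33 on the H/R+B12 arrays, against 11.27, 11.14, 10.78 and 10.99 on the control+B12 arrays. Timmdc1 overlapped between H/R and control and did not between H/R+B12 and control+B12. Timmdc1 changed by -0.30 ± 0.15 for H/R against control (adjusted p = 0.22) and -0.62 ± 0.15 for H/R+B12 against control+B12 (adjusted p = 0.00783).

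B12 moved no import gene past the threshold. In H/R+B12 against H/R limma called 0 of 26 genes and 0.0% of all probe sets, and in control+B12 against control likewise 0 of 26 and 0.0%. At an unadjusted p under 0.05 there was 1 gene in H/R+B12 against H/R (4.55% of all probe sets), 1 in control+B12 against control (5.76%) and 2 in the interaction (4.82%). Log2 changes of the 26 genes ranged from -0.70 to 0.28 in H/R+B12 against H/R and from -0.34 to 0.28 in control+B12 against control. Medians for the 16 Timm and 10 Tomm genes were -0.06 and -0.03 in H/R+B12 against H/R, and -0.04 and 0.01 in control+B12 against control.

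The gene in H/R+B12 against H/R was Timm10b, at -0.70 ± 0.23 (limma adjusted p = 1). Its interaction, the H/R change with B12 minus the H/R change without, was -0.98 ± 0.32 (limma adjusted p = 0.972). The H/R+B12 arrays read 7.44, 7.89, 7.80 and 6.90, against 8.24, 7.82, 8.45 and 8.33 on the H/R arrays, and the groups overlapped. In control+B12 against control the gene was Timm44, at -0.34 ± 0.13 (limma adjusted p = 0.831). Timm44 read 11.57, 11.18, 11.27 and 11.55 with control+B12, against 11.85, 11.59, 11.64 and 11.82 with control, and these arrays did not overlap (1.51% of all probe sets did not overlap and were lower). The other gene of the interaction was Timm17b, at 0.44 ± 0.20 (limma adjusted p = 0.987), its fall after H/R being -1.14 with B12 and -1.58 without. In each of these 3 comparisons 0 members passed after adjustment over all probe sets, and the 2 H/R comparisons are therefore not shown to differ for any member.

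**Figure D4:**
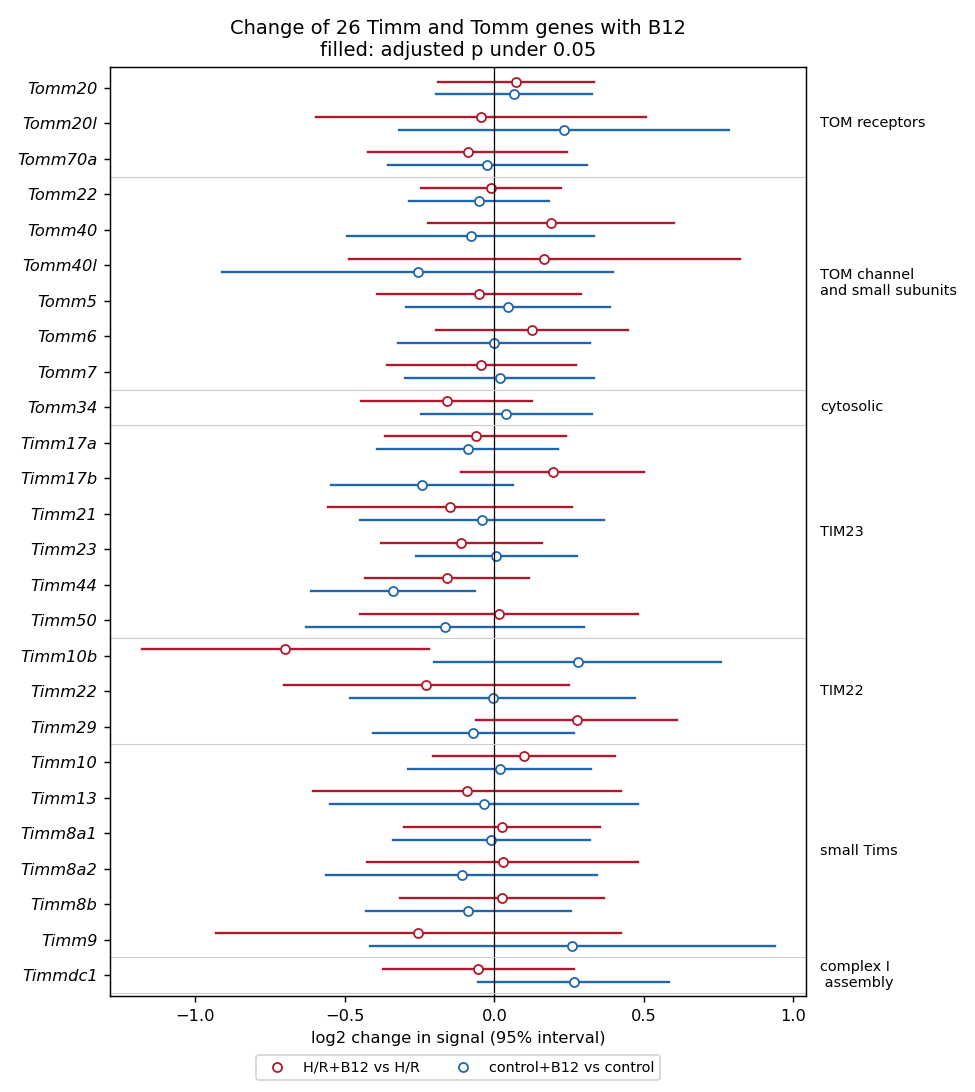
Log2 change in signal (x axis, with 95% intervals) of the 26 genes in H/R+B12 against H/R (dark red) and in control+B12 against control (blue). All points are open because no gene passed an adjusted p under 0.05, and Timm10b in H/R+B12 against H/R, at -0.70, lies furthest from 0.

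Other genes of the import pathway also moved in both directions. Of 32 measured genes, on a list of 34 motor, chaperone, protease, sorting and relay factors, 5 were higher and 7 lower in H/R against control (median log2 change -0.14), and 6 were higher and 7 lower in H/R+B12 against control+B12 (median -0.04). All 32 were brighter on average than the highest background median, and of such probe sets 35.0% and 36.1% were called (17.6% and 18.7% of all), so these counts are near the background. Of the 10 motor and chaperone genes 3 were higher and 2 lower without B12, and 4 were higher and 4 lower with it. Hspa9, the matrix Hsp70 that drives the import motor, changed by 1.07 ± 0.15 (adjusted p = 0.000121) in H/R against control and 1.23 ± 0.15 (adjusted p = 3.08e-05) in H/R+B12 against control+B12. Grpel2, a nucleotide exchange factor of that Hsp70, changed by 1.32 ± 0.24 (adjusted p = 0.000952) in H/R against control and 0.76 ± 0.24 (adjusted p = 0.0359) in H/R+B12 against control+B12; its second call was lost without control+B12 replicate 2, 3 or 4 or H/R+B12 replicate 2 or 4 (adjusted p from 0.0752 to 0.103) and centred on the negative controls (0.084). Hspe1, the co-chaperonin, changed by 0.49 ± 0.13 (adjusted p = 0.0147) in H/R against control and 0.78 ± 0.13 (adjusted p = 0.000436) in H/R+B12 against control+B12; its first call was lost without control replicate 4 (0.0512) or H/R replicate 4 (0.0537) and centred on the negative controls (0.316). Dnajc19, a J protein of the motor, fell, with log2 changes of -0.95 ± 0.13 (adjusted p = 6.5e-05) in H/R against control and -0.73 ± 0.13 (adjusted p = 0.000671) in H/R+B12 against control+B12. Trap1, a mitochondrial Hsp90, fell as well, with log2 changes of -0.45 ± 0.12 (adjusted p = 0.0168) in H/R against control and -0.47 ± 0.12 (adjusted p = 0.0128) in H/R+B12 against control+B12; its first call was lost without control replicate 4 (0.0587). Hspd1, Dnajc15 and Dnlz, named here after their values were seen, passed with B12 and not without it, and their interactions were not called. Hspd1, the matrix chaperonin, changed by 0.41 ± 0.16 (adjusted p = 0.102) in H/R against control and 0.70 ± 0.16 (adjusted p = 0.00555) in H/R+B12 against control+B12; the second call was lost centred on the negative controls (0.0575), and the first comparison passed with an intensity trend (0.0152). Dnajc15, a J protein of the inner membrane, changed by -0.33 ± 0.23 (adjusted p = 0.42) in H/R against control and -0.86 ± 0.23 (adjusted p = 0.0135) in H/R+B12 against control+B12. Dnlz, which keeps Hspa9 soluble, changed by -0.57 ± 0.20 (adjusted p = 0.054) in H/R against control and -0.64 ± 0.20 (adjusted p = 0.0304) in H/R+B12 against control+B12. The second Dnlz call was lost without control+B12 replicate 2 (0.0983) or 3 (0.0564), without H/R+B12 replicate 3 (0.0938) or 4 (0.0581) and centred on array medians (0.0587) or the negative controls (0.0656). The first Dnlz comparison passed without control+B12 replicate 2 (0.0468) or H/R replicate 3 (0.0358) or 4 (0.0463). With all arrays kept, it passed with an intensity trend (0.0208), array weights (0.0439) or the dimmest 25% left out (0.0381).

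Of the 2 genes of the disulfide relay, which traps small Tims between the membranes, Chchd4 rose, by 1.09 ± 0.26 (adjusted p = 0.00657) in H/R against control and 1.13 ± 0.26 (adjusted p = 0.00505) in H/R+B12 against control+B12. Of 3 quality control genes Lonp1, the main matrix protease, rose, by 0.80 ± 0.15 (adjusted p = 0.000987) in H/R against control and 0.81 ± 0.15 (adjusted p = 0.000887) in H/R+B12 against control+B12. Of 6 presequence protease genes Immp1l, an inner membrane peptidase, fell, with log2 changes of -1.03 ± 0.16 (adjusted p = 0.000231) in H/R against control and -0.71 ± 0.16 (adjusted p = 0.00467) in H/R+B12 against control+B12. Of 7 outer membrane sorting genes Mtch1, a carrier-like protein of that membrane, fell, with log2 changes of -1.38 ± 0.13 (adjusted p = 1.56e-06) in H/R against control and -1.26 ± 0.13 (adjusted p = 3.72e-06) in H/R+B12 against control+B12. Mtx1 and Mtx3, metaxins of the sorting machinery, fell in H/R against control. Mtx3 changed by -1.02 ± 0.19 (adjusted p = 0.000847) in H/R against control and -0.25 ± 0.19 (adjusted p = 0.416) in H/R+B12 against control+B12 and Mtx1 by -0.48 ± 0.15 (adjusted p = 0.0389) in H/R against control and 0.00 ± 0.15 (adjusted p = 0.998) in H/R+B12 against control+B12; the first Mtx1 call was lost without control replicate 1 (0.108) or 2 (0.0923) or H/R replicate 1 (0.119) or 2 (0.115), and centred on array medians (0.0823) or quantile normalized (0.07). Among 4 genes of inner membrane insertion and its partners Romo1, a small TIM23-associated protein, changed by -1.60 ± 0.13 (adjusted p = 3.52e-07) in H/R against control and -1.13 ± 0.13 (adjusted p = 1.06e-05) in H/R+B12 against control+B12.

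With B12 limma called 0 of these 32 genes in H/R+B12 against H/R, between control+B12 and control or in the interaction. Unadjusted p was under 0.05 for 2, 1 and 3 of them, and for 4.55%, 5.76% and 4.82% of all probe sets. The 3 smallest p in H/R+B12 against H/R belonged to Mtx3 at 0.59 ± 0.19, Romo1 at 0.38 ± 0.13 and Hspe1 at 0.22 ± 0.13, each with an adjusted p of 1. In control+B12 against control they were those of Mtch2 at -0.28 ± 0.12 (adjusted p = 0.846), Dnajc19 at -0.27 ± 0.13 (adjusted p = 0.861) and Immp1l at -0.28 ± 0.16 (adjusted p = 0.875). In the interaction they were those of Mtx3 at 0.77 ± 0.26 (adjusted p = 0.972), Romo1 at 0.47 ± 0.18 (adjusted p = 0.972) and Mtx1 at 0.49 ± 0.22 (adjusted p = 0.987).

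**Figure D5:**
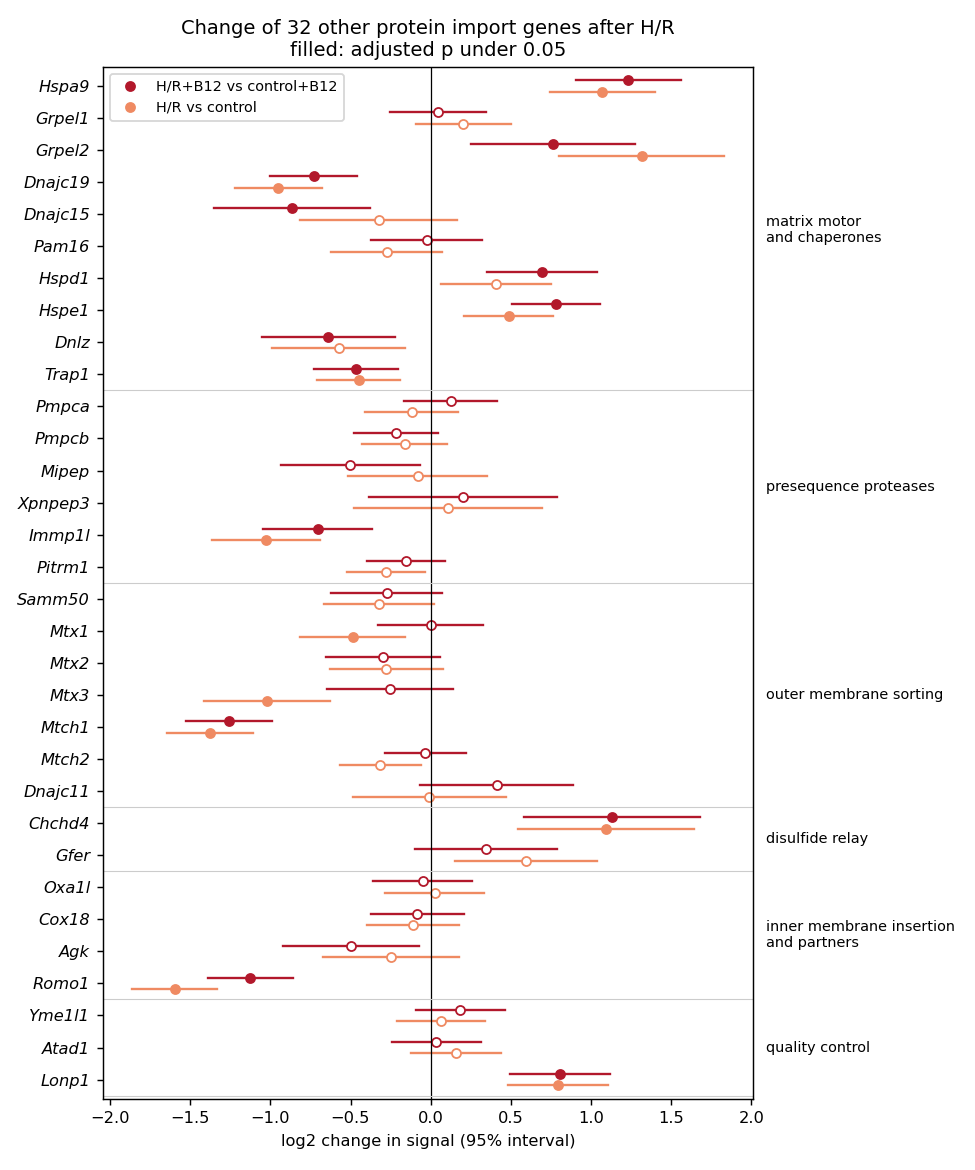
Log2 change in signal (x axis, with 95% intervals) of 32 other protein import genes by class, in H/R+B12 against control+B12 (dark red) and in H/R against control (orange). Filled points passed an adjusted p under 0.05, with Grpel2 highest at 1.32 and Romo1 lowest at -1.60, both in H/R against control.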

How the data were processed

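Gene expression was measured with 1-colour Affymetrix arrays on 16 samples of BU.MPT cells in 4 groups of 4, from 700 pg of RNA per sample. The deposited values are log2 signals per probe set, made by the authors by robust multi-array averaging (RMA). The submitters' processing notes name Affymetrix Expression Console and Transcriptome Analysis Console, whose versions, like the genome build, were not given in the sources used here. RMA scales arrays to alike distributions, so an overall shift in RNA would not be seen, and the number of arrays limits the precision.

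Of 28846 features 6640 control features were left out, and 22206 probe sets went into 1 linear model of the 4 groups (limma 3.58.1, R 4.3.3) with moderated variances (4.23 prior and 16.2 total degrees of freedom). Two-sided p-values were adjusted by Benjamini and Hochberg over the 22206 probe sets, with a threshold of 0.05; errors are standard errors of the fit. Names came from the platform annotation, which gave a symbol for 19572 probe sets. Each member had 1 probe set. Differences within paralogue pairs are given as a description. An exact permutation test of them was computed but is not used, because they were added after seeing the data. Motifs were searched in RefSeq promoters in Python 3.11.15. The fit was tested on simulated data. Members, lists and tests were chosen with earlier results of these data known. All members are given, with every array value for those called in an H/R comparison and for paralogues of the same complex; import list genes are named where called in H/R against control, or as the 3 of smallest p where none was, and 3 more called with B12 were named after their values were seen.

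Replicate numbers are shared by the groups, but deviations of same-numbered arrays were at most weakly correlated (24 pairs, correlation from -0.072 to 0.0786), so the fit has no block. The negative control median was still highest on replicate 1 in every group. It was 6.17 there in H/R+B12, 6.23 in H/R, 6.08 in control+B12 and 6.10 in control, which the fit takes no account of. Alternative settings added a replicate block, restricted the fit to the 2 groups at hand, let variances follow a trend (robustly), weighted the arrays, dropped the 25% dimmest probe sets, used quantile normalization, centred arrays by their medians, kept a single probe set for each gene, took membrane-bound translocase parts only, or left out 1 array. Centring on the negative controls and the paralogue differences were added after seeing the data.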

Additional observations from a re-analysis of the deposited data

Results flagged for a closer look

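Within the groups of 4 arrays, 2 of 104 combinations of gene and group held an array set apart from the other 3 by Dixon's criterion, which chance meets in about 1 in 20. Timm10 read 9.81 on H/R+B12 replicate 4, the lowest of its group, against 10.07 on the next, a gap of 0.839 of the group's range. Tomm40 read 11.02 on control+B12 replicate 1, the highest of its group, against 10.80 on the next, a gap of 0.83 of the range.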

How the results depend on the processing

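Of the 26 single-gene calls in the H/R comparisons, 12 passed under all 25 alternatives, 14 were lost under at least 1, and 0 changed direction. Timm17b, Timm21, Timm8b and Tomm6 passed under all of them in both comparisons. With only the 2 groups fitted, H/R against control lost the calls of Timm10 (adjusted p = 0.0612), Timm13 (0.0779) and Timm17a (0.0703). It also lost those of Timm23 (0.0581), Tomm20 (0.0892) and Tomm22 (0.0852). In H/R+B12 against control+B12 that fit lost Timm22 (0.0647), Tomm20 (0.0983) and Tomm22 (0.127). Among import list genes it lost Hspe1 (0.0551), Trap1 (0.0652) and Mtx1 (0.0856) in H/R against control. The count of 11 genes in H/R against control was 5 (1 higher, 4 lower) when only the 2 groups were fitted, with fewer arrays to estimate the spread, and 6 (0 higher, 6 lower) centred on the negative controls, where the median log2 changes were -0.27 for Timm and -0.42 for Tomm genes. It was 6 to 11 when 1 array was left out, and 11 to 15 for H/R+B12 against control+B12. With the replicate block the counts were 10 and 12. That block also lost the Mtx1 call in H/R against control (adjusted p = 0.0637) and the Dnlz call in H/R+B12 against control+B12 (0.0556). The arrays carry shared replicate numbers only, and 7 of 16 correlated best with their own number. Leaving out 1 array gave median changes of -0.19 to -0.04 and -0.27 to -0.06 for the Timm genes and -0.32 to -0.19 and -0.32 to -0.22 for the Tomm genes in the 2 H/R comparisons. The Timm17a minus Timm17b difference moved by 1.81 to 1.98, and Timm8a1 minus Timm8b by 1.60 to 1.74, when 1 array was left out. Tomm40 minus Tomm40l then moved by 0.36 to 0.57. Each member has 1 probe set, so taking the probe set of lowest mean could change nothing, and the interaction was not refitted with 2 groups. Probe sets near the background, as for Tomm40l, Timm8a2 and Tomm20l, limit what can be seen of those genes.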
